A study of Mus musculus with 8 samples.

Results

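The 10 genes described here encode the heavy, intermediate, light intermediate and LC8 light chains of cytoplasmic dynein-1 (Dync1h1, Dync1i1, Dync1i2, Dync1li1, Dync1li2, Dynll1 and Dynll2), Lis1 (gene symbol Pafah1b1) and the Lis1 partners Nde1 and Ndel1. They were taken by symbol, through the RefSeq accession that the array files give for each probe. All 10 were found, with 16 probes, among 39429 gene probes on the array, and all 16 probes were among the 23858 that could be tested, which stand for 19230 genes. Of these genes 13830 have a symbol, and each record without a symbol was counted as a gene of its own. The samples were neocortex of ICR mice at embryonic day 16 (E16), with no genotype or treatment named in the labels. The germinal tissue next to the ventricle (ventricular and subventricular zone, V/SVZ) and the cortical plate (CP), where new neurons settle, were dissected by hand, with 4 samples of each tissue and 1 array per sample. Per the labels' protocols, 100 ng of total RNA was amplified and labelled with Cy3 for 1-colour Agilent arrays. Whether different animals, or pools of animals, gave the 4 samples is not stated in the labels, so p-values cover only the variation among these arrays and that may be technical variation.

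Cytoplasmic dynein-1 is the motor that carries cargo towards the minus ends of microtubules. Its heavy chain holds the motor, the intermediate and light intermediate chains link the motor to dynactin and to cargo adaptors, and the light chains bind the intermediate chains. Lis1 binds the motor directly, and Nde1 and Ndel1 bring Lis1 to it. In the developing cortex this machinery moves the nuclei of radial glia towards the ventricle, positions the mitotic spindle and pulls the nucleus of a migrating neuron forward. Loss of a single copy of the Lis1 gene causes lissencephaly, a smooth cortex, and loss of NDE1 causes a severe microcephaly.

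The results turn on 2 pairs of paralogues that separated most between the tissues, Nde1 with Ndel1 and Dync1i1 with Dync1i2, so the sequences upstream of their starts are printed first. They are RefSeq sequences of build GRCm38.p6, each the 250 bases before an annotated start, written 5′ to 3′ along the gene's strand. The windows are chr16:14163025-14163274, plus strand for Nde1, chr11:68853136-68853385, minus strand for Ndel1 and chr6:5725389-5725638, plus strand for Dync1i1. Dync1i2 has 2 annotated windows, chr2:71211456-71211705, plus strand and chr2:71211696-71211945, plus strand. Capitals mark a CCAAT box (CCAAT, or ATTGG on the other strand) or an E2F site (TTTGGCGC, TTTCCCGC, TTTGCCGC or TTTCGCGC, or the reverse complement).
Nde1: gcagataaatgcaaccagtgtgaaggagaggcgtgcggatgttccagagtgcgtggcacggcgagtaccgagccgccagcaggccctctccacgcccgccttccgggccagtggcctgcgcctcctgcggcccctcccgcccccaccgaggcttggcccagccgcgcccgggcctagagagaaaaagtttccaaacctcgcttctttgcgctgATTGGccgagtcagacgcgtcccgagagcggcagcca
Ndel1: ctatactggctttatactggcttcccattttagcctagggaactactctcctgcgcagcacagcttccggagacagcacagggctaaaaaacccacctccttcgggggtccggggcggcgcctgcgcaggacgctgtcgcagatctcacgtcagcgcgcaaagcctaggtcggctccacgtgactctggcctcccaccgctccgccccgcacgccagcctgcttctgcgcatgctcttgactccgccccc
Dync1i1: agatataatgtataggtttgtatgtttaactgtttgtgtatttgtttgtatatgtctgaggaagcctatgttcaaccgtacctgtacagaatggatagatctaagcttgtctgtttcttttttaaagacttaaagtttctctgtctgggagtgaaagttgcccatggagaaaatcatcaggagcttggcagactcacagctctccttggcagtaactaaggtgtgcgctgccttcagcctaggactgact
Dync1i2, first window: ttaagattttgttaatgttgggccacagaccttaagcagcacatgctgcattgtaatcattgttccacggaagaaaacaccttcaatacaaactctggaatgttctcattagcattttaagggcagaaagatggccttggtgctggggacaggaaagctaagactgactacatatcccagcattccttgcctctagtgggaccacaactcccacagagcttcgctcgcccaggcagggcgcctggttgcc
Dync1i2, second window: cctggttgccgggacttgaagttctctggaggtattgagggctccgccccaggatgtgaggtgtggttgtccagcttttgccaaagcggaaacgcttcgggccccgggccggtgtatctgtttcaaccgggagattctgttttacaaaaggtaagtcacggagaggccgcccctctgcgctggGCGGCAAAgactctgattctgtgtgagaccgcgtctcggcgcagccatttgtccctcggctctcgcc

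Of the 10 genes, 8 have such a window in the table used. Dync1li2 and Dynll2 do not. The Nde1 window holds 1 CCAAT box, on the other strand, at bases 37 to 33 before the start, and the Dync1i1 window holds none of the motifs searched. A CCAAT box on either strand is found in 33.8% of the 32851 windows of this length, an E2F site in 1.86%, the cell cycle homology region TTTGAA in 16% and a GC box (GGGCGG) in 32.7%. No window of the 8 genes holds TTTGAA. Among the 8 genes, a CCAAT box is present also in Dynll1 (2 copies), and an E2F site, which overlaps a GC box, in the second window of Dync1i2. GC boxes, not marked by capitals, are in the Nde1 (bases 114 to 109), Ndel1, Dync1h1, Dync1li1, Dynll1 and second Dync1i2 windows. The Dync1i1, Pafah1b1 and first Dync1i2 windows hold none. Base composition varies among the printed windows. The Dync1i1 window is 40.8% G and C with 2 CpG, at percentile 13.3 of all windows, whereas the Nde1 window is 67.2% with 24 CpG, at percentile 86.5. Ndel1 lies at 63.6%, percentile 80, and the Dync1i2 windows at 48.4% and 59.6%, beside a median of 52.4% over all windows. The windows of Dync1li1, Dynll1 and Pafah1b1, not printed here, lie above that of Nde1, at 69.6%, 68.8% and 73.2%. These matches are descriptions of the letters only.

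The tissue labels were checked against marker genes before the dynein genes were compared. All 7 radial glia markers, all 4 intermediate progenitor markers and all 5 markers of mitotic cells were higher in the V/SVZ, and all 6 markers of cortical plate neurons were higher in the CP. Among the markers higher in the V/SVZ, Pax6 and the mitotic marker Aurkb could be tested only through the V/SVZ. Neither was well above background on any CP array. Pax6, a factor that marks radial glia, was not well above background in the CP and exceeded it at least 105-fold in the V/SVZ (43.7-fold with normexp correction, at least 3.77-fold by a second probe), and Eomes, of intermediate progenitors, was higher by 8.39 ± 0.18 (SE) on the log2 scale. Tbr1 and Bcl11b, of deep-layer neurons, were higher in the CP by 2.89-fold and 6.91-fold. Markers of other cells also differed, with 5 of 6 microglial, 3 of 6 endothelial or pericyte and 3 of 4 tested erythroid genes higher in the V/SVZ and none higher in the CP. Interneuron markers were split, with 3 higher in each tissue, and 3 of 5 meningeal and 2 of 5 oligodendrocyte lineage markers did not pass. Of the other meningeal markers, 1 was higher in each tissue, and the 1 towards the CP, Lum, could be tested only through the CP. Of the other oligodendrocyte lineage markers, 2 were higher in the V/SVZ and 1 in the CP. The part of these cells in the results below was not tested. Arrays of the same tissue correlated at 0.993 to 0.998 and arrays of different tissues at 0.902 to 0.917. All V/SVZ arrays lay on 1 slide and all CP arrays on another, each with its own scan, so slide and tissue cannot be told apart. In such bulk tissue, fewer cells of a type and less RNA per cell cannot be told apart either.

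All levels below are log2 signals minus the 75th percentile of the same array, so 0 is the level of each array's 75th percentile, and differences are V/SVZ minus CP. Such levels compare a probe with itself across arrays and not 1 probe with another. Each gene is represented by its brightest tested probe, tested with limma and adjusted over all tested probes, with a threshold of 0.05. By that rule 1 of the 10 genes, Nde1, was higher in the V/SVZ and 9 were higher in the CP. The tissues differ so widely that 79.5% of all 19230 genes passed the same threshold, 35% towards the V/SVZ and 44.6% towards the CP. At the level of probes the share was 79.7%, beside 16 of 16 probes of the members. Of all 23858 tested probes, 75.5% had no overlap between the arrays of the tissues. A call or a lack of overlap alone therefore says little about a member, and the size of each difference is given. Of the 10 genes, 3 were called with a difference of at least 2-fold (Dync1i1, Dynll2 and Nde1), a share close to the 30.2% of all genes. The median difference was -0.64 over the 10 genes and -0.09 over all genes.

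**Figure D1:**
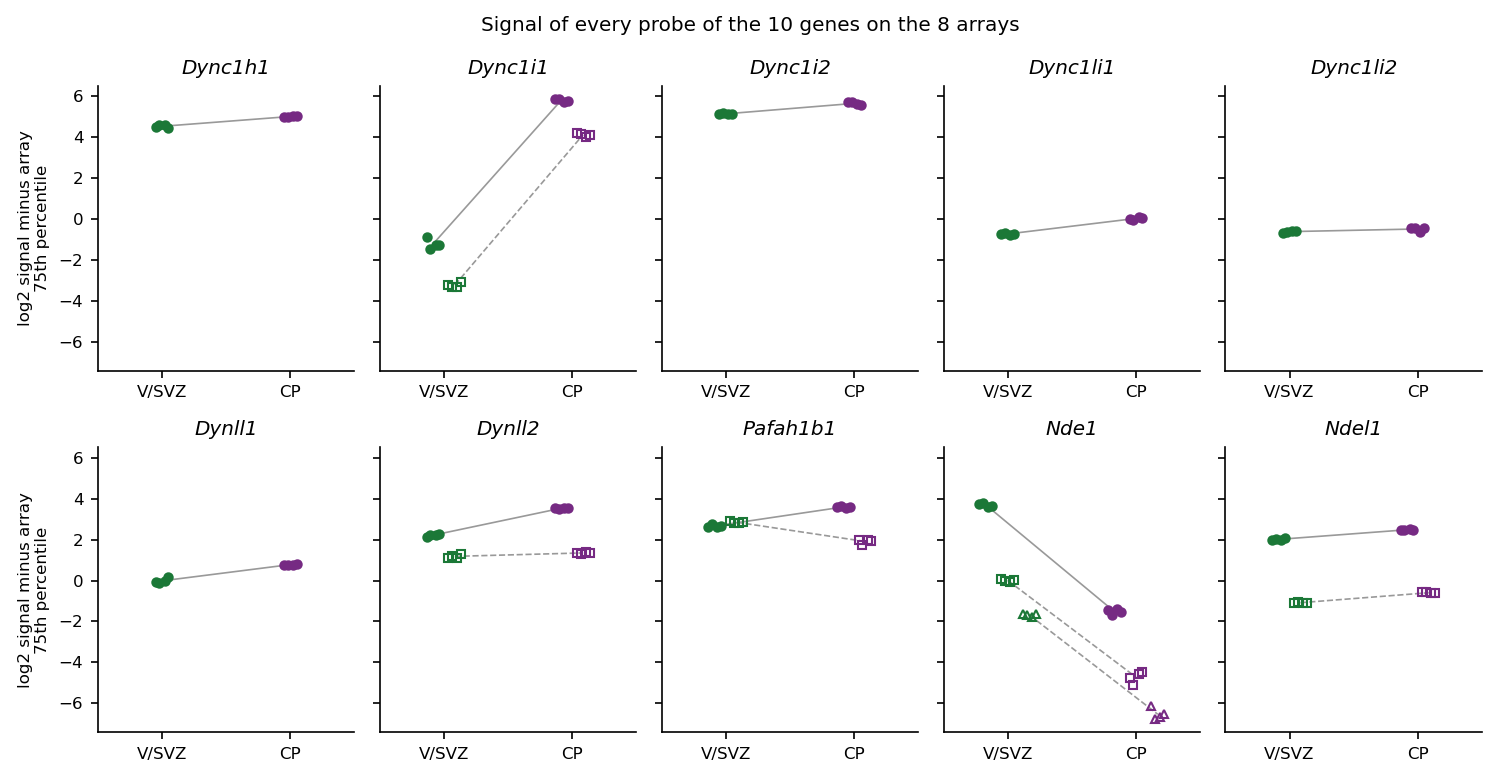
Each panel plots 1 gene, with the log2 signal minus the array's 75th percentile on the vertical axis and the tissue on the horizontal axis. Points are single arrays, 4 per tissue, filled circles show the brightest probe, open squares and triangles show further probes of the gene, and lines join the tissue means. Nde1 falls from the V/SVZ to the CP with all 3 probes, Dync1i1 rises with both, the 2 probes of Pafah1b1 cross, and the brightest probes of the other genes differ by at most 1.32. The triangles of Nde1 in the CP were not well above background.

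Dync1h1 encodes the heavy chain, the motor subunit that the complex cannot work without. Its level was 4.51, 4.58, 4.59 and 4.45 on V/SVZ arrays 1 to 4 and 5, 5.01, 5.02 and 5.02 on CP arrays 1 to 4. All CP arrays lay above all V/SVZ arrays. The difference was -0.48 ± 0.04 (SE, n = 4 per tissue; 95% confidence interval -0.57 to -0.39), which is 1.39-fold higher in the CP (limma adjusted p = 9.6e-06).

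The intermediate chains, which anchor the light chains and dynactin, changed very unequally. Dync1i1, whose product is known mainly from neurons, had the widest difference of the 10 genes. Its brightest probe (A_55_P2090429) read -0.86, -1.46, -1.29 and -1.28 on the V/SVZ arrays and 5.87, 5.87, 5.71 and 5.79 on the CP arrays. The CP was higher by 131-fold (difference -7.03 ± 0.12, 95% confidence interval -7.31 to -6.75, limma adjusted p = 1.2e-09). Of all 19230 genes, 15, or 0.078%, lay at least as far towards the CP, Dync1i1 included. The second probe (A_55_P2150496), matched to the same accession, gave a difference of -7.35 ± 0.07, or 163-fold. Both probes were well above background on all 8 arrays, so the gene was measurable in the V/SVZ as well.

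Dync1i2, the intermediate chain known from most cell types, moved in the same direction but far less. It read 5.13, 5.17, 5.12 and 5.15 on the V/SVZ arrays and 5.73, 5.7, 5.6 and 5.58 on the CP arrays. The groups did not overlap, and the CP was 1.42-fold higher (difference -0.51 ± 0.04, limma adjusted p = 1.2e-05). The markers of cortical plate neurons moved with both genes. Their summed level, each marker relative to the array's 75th percentile, was 41.3 to 44.4 on the V/SVZ arrays and 229 to 242 on the CP arrays, with 6 of 6 markers higher in the CP. The brightest probes weigh most in such a sum, in the CP that of Mapt (mean level 6.68), so it does not measure cell content. The part of these markers in the differences of both genes was not tested.

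The light intermediate chains bind the cargo adaptors. Dync1li1 read -0.74, -0.7, -0.77 and -0.71 in the V/SVZ and 0.02, -0.04, 0.11 and 0.03 in the CP, without overlap. It was 1.7-fold higher in the CP (difference -0.76 ± 0.04, limma adjusted p = 5.47e-07). Dync1li2 was the member with the smallest difference. It read -0.68, -0.62, -0.56 and -0.6 in the V/SVZ and -0.46, -0.43, -0.61 and -0.44 in the CP, and CP array 3 lay among the V/SVZ arrays. The difference of -0.13 ± 0.05 (95% confidence interval -0.25 to -0.01) passed the threshold narrowly (limma adjusted p = 0.0404), but not with the replicate number as a block (adjusted p = 0.0882), nor without V/SVZ array 1, 2 or 4 or CP array 1, 2 or 4, each left out alone (-0.14 to -0.11, adjusted p of 0.0612 to 0.101). Without CP array 3 it was -0.17 (adjusted p = 0.00651). Before scaling, its signal was 1512 to 1733 in the V/SVZ and 1424 to 1650 in the CP.

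The LC8 light chains, small dimeric proteins that also bind many partners outside dynein, were both higher in the CP. Dynll1 read -0.09, -0.12, -0.02 and 0.17 in the V/SVZ and 0.78, 0.76, 0.76 and 0.82 in the CP, a difference of -0.8 ± 0.06 (1.74-fold, limma adjusted p = 7.81e-06). For Dynll2 the brightest probe (A_51_P437144) read 2.14, 2.22, 2.23 and 2.27 in the V/SVZ and 3.53, 3.49, 3.57 and 3.55 in the CP. That is 2.5-fold higher in the CP (-1.32 ± 0.04, limma adjusted p = 1.79e-08). The second Dynll2 probe (A_51_P203878), with the same accession, differed by only -0.17 ± 0.05 (limma adjusted p = 0.0152), so the size of the Dynll2 difference rests on the probe. The within-array difference of the 2 probes changed by -1.15 between tissues (exact two-sided permutation test, p = 0.0286, the smallest that 4 against 4 arrays can give, and 0.0343 when adjusted over the 6 pairs of probes of the same gene). Before scaling, the second probe's signals overlapped between tissues, at 5187 to 6146 in the V/SVZ and 5381 to 5713 in the CP.

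Pafah1b1, the Lis1 gene, gave opposite results with its 2 probes, which carry the same accession. Probe A_55_P2111005 read 2.63, 2.75, 2.63 and 2.66 in the V/SVZ and 3.59, 3.62, 3.57 and 3.6 in the CP. Probe A_55_P1992769 read 2.92, 2.81, 2.79 and 2.88 in the V/SVZ and 1.96, 1.75, 1.98 and 1.95 in the CP. In both cases the groups were apart on all 8 arrays, with the CP above for the first and below for the second. The first was 1.9-fold higher in the CP (difference -0.93 ± 0.04, limma adjusted p = 1.25e-07) and the second 1.92-fold higher in the V/SVZ (0.94 ± 0.06, limma adjusted p = 1.79e-06). The call for Pafah1b1 among the 9 genes higher in the CP therefore holds for the brighter probe alone, and the mean of both probes differed by 0.01 (adjusted p = 0.866). The within-array difference of the 2 probes changed by -1.87 (exact two-sided permutation test, p = 0.0286, adjusted 0.0343). Of 3865 genes with several tested probes, 318, or 8.23%, had probes called in opposite directions. The parts of the transcript that the 2 probes read are not given in the sources used here.

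Nde1 was the member that was higher in the V/SVZ, with all 3 of its probes. The brightest probe (A_55_P2165334) read 3.76, 3.78, 3.58 and 3.66 in the V/SVZ and -1.42, -1.69, -1.4 and -1.52 in the CP. The V/SVZ was 36.8-fold higher (difference 5.2 ± 0.08, 95% confidence interval 5.02 to 5.38, limma adjusted p = 7.02e-10). Of all 19230 genes, 164, or 0.853%, lay at least as far towards the V/SVZ, Nde1 included. The other 2 probes carry the accession of another transcript record. Probe A_55_P2041843 read 0.1, 0, -0.07 and 0.01 in the V/SVZ and -4.76, -5.09, -4.57 and -4.47 in the CP, a 26.6-fold difference (4.73 ± 0.13, limma adjusted p = 1.04e-08). Probe A_66_P125660, which on the CP arrays was not well above background, was at least 16.2-fold higher in the V/SVZ (limma adjusted p = 1.05e-08). With normexp background correction, which adds an offset of 50 to each signal, the dimmer probes gave 3.9 and 3.02, or 14.9-fold and 8.11-fold, below that bound for the last. The markers of mitotic cells moved with Nde1. All 5 were higher in the V/SVZ, but Aurkb could be tested only through the V/SVZ. The summed level of the 5 was 35.2 to 39.1 in the V/SVZ and 0.811 to 1.02 in the CP. The summed level of the radial glia markers was 185 to 199 and 10.6 to 12. In the V/SVZ the probes of Mki67 and Fabp7 (mean levels 4.31 and 6.76) weigh most in the mitotic and the radial glia sum. The part of these markers in the Nde1 difference was not tested.

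Ndel1, the paralogue of Nde1 that also binds Lis1 and dynein, was higher in the CP. Its brightest probe (A_51_P350073) read 1.98, 2.01, 1.98 and 2.08 in the V/SVZ and 2.48, 2.45, 2.51 and 2.49 in the CP. The second probe (A_52_P488305) read -1.08, -1.04, -1.11 and -1.1 in the V/SVZ and -0.58, -0.55, -0.62 and -0.63 in the CP. Both probes gave nearly the same difference, -0.47 ± 0.04 and -0.49 ± 0.03, and the tissues did not overlap with either. The first was 1.39-fold and the second 1.4-fold higher in the CP (limma adjusted p = 5.85e-06 and 3.63e-06). Of the 6 pairs of probes of the same gene, it was the 1 pair whose within-array difference did not pass (change 0.02, exact two-sided permutation test, p = 0.743).

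**Figure D2:**
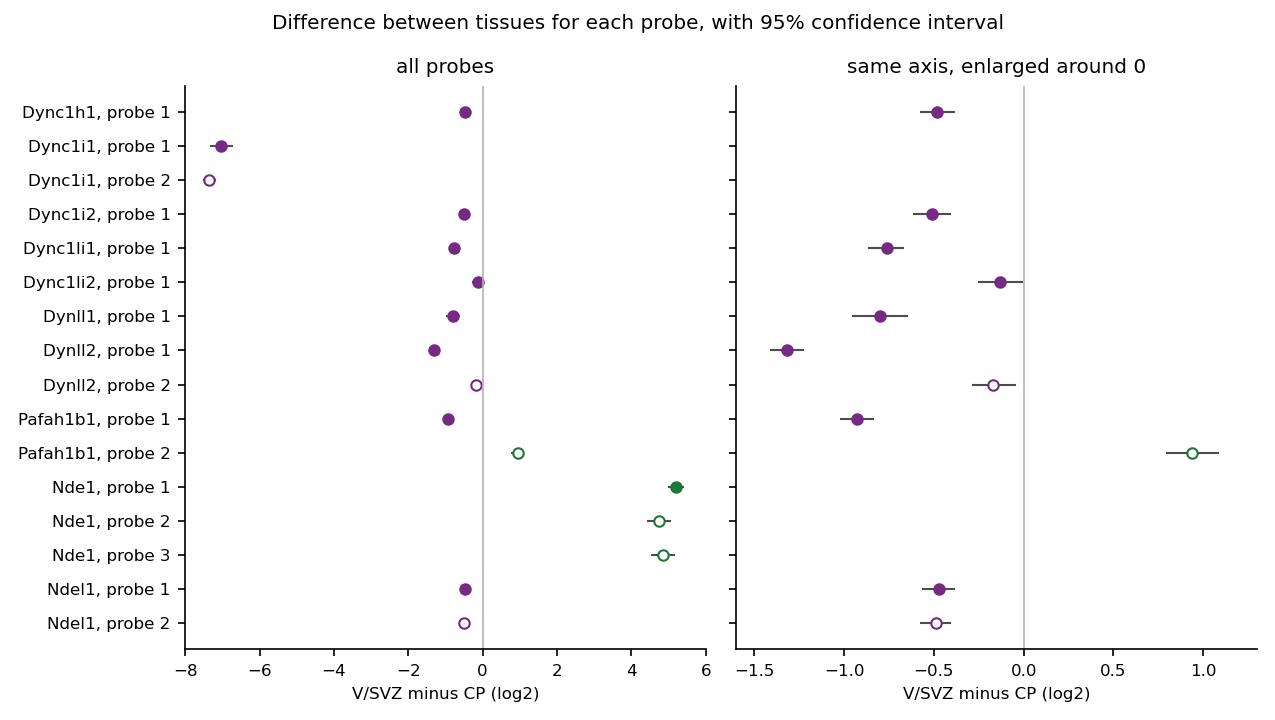
The horizontal axis is the difference V/SVZ minus CP in log2 units for each of the 16 probes, with bars for the 95% confidence interval, and the right panel enlarges the range around 0. Filled points are the brightest probe of each gene, open points are further probes, green is higher in the V/SVZ and purple higher in the CP. The Nde1 probes lie at 4.73 to 5.2 and the Dync1i1 probes at -7.35 and -7.03, the Pafah1b1 probes lie on either side of 0 at -0.93 and 0.94, and the interval of Dync1li2 ends at -0.01.

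Because paralogues can in part take each other's place, 4 pairs were compared by the difference of their signals within each array, which a shift of a whole array's signals cannot change. In each pair the tissues did not overlap, which also holds for 75.5% of single tested probes. Each test gave the smallest p possible with 4 against 4 arrays (exact two-sided permutation test, p = 0.0286, and the same when adjusted over the 4 pairs). These permutations ignore the replicate numbers. With arrays paired by number, every pair of arrays changed in the same direction for each pair of genes, and the exact sign-flip test gave p = 0.125, the smallest that 4 pairs allow, so in that design no p can pass the threshold. For Nde1 minus Ndel1 the difference was 1.68 ± 0.11 (SD, n = 4) in the V/SVZ and -3.99 ± 0.11 in the CP. Nde1 was thus 51.1-fold higher relative to Ndel1 in the V/SVZ than in the CP (change 5.67 ± 0.08, SE). Dync1i1 minus Dync1i2 was -6.36 ± 0.27 in the V/SVZ and 0.16 ± 0.04 in the CP, a change of 92-fold in favour of Dync1i1 in the CP. The change was far smaller for the other 2 pairs. The same test also passed between probes of the same gene for Dync1i1, Dynll2, Pafah1b1 and Nde1, though not for Ndel1. Those changes were 0.32 for Dync1i1, 0.35 and 0.47 for Nde1, -1.15 for Dynll2 and -1.87 for Pafah1b1. For the 2 pairs with small changes, a pass therefore cannot tell unequal change of the genes from a difference between probes. The light intermediate chains have a single probe each. By these probes Dync1li1 rose relative to Dync1li2 by 1.55-fold in the CP (change -0.63 ± 0.08). Dynll1 minus Dynll2 changed by 0.52 ± 0.05, towards Dynll2 in the CP, but with the mean of both Dynll2 probes the change was -0.05 (adjusted p = 0.371).

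**Figure D3:**
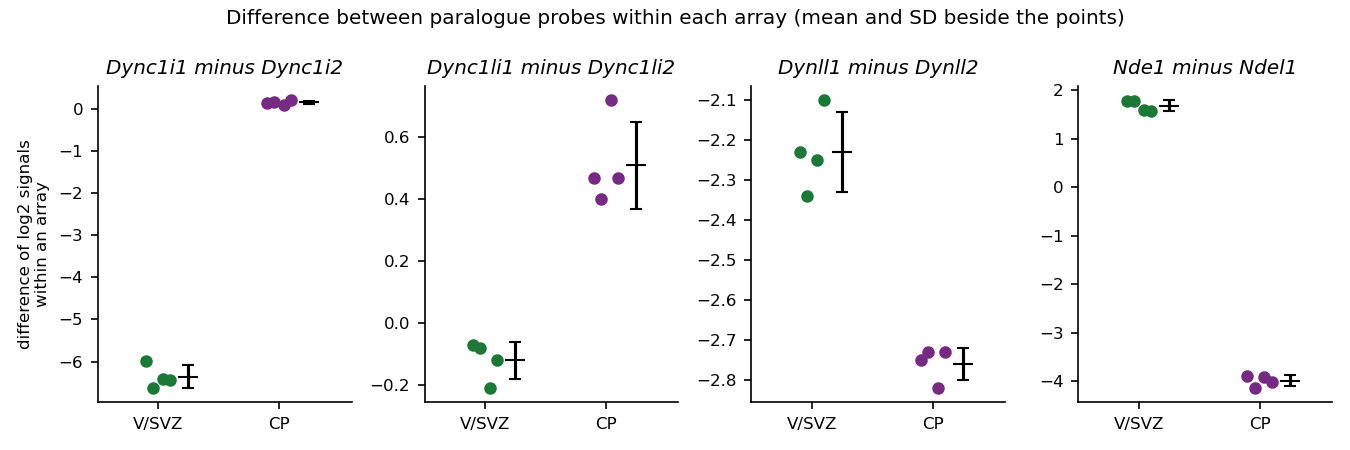
Each panel plots, for 1 pair of paralogues, the difference of their log2 signals within an array on the vertical axis and the tissue on the horizontal axis. Points are arrays, 4 per tissue, and the bars beside them give the mean and the SD. The vertical axes differ in range between panels and do not start at 0. The tissues are apart in all 4 panels, by 5.67 for Nde1 minus Ndel1 and by 0.52 for Dynll1 minus Dynll2.

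The genes with the profiles most like those of 4 members were found over the 8 arrays, as the root mean square distance between profiles centred on their means, among 12534 genes measured on all arrays. For Nde1 they were Cenpa, the centromeric histone H3 variant (distance 0.0889, difference 5.15), Ube2c, a ubiquitin-conjugating enzyme of mitotic exit (0.0915, 5.33), and Spc24, a kinetochore protein (0.0944, 5.23). All 3 are known from dividing cells. For Dync1i1 they were Camk2b, a neuronal kinase subunit (0.183, -7.35), Caln1, a calcium-binding protein (0.199, -6.73), and Ntsr1, a neurotensin receptor (0.266, -7.25). For Pafah1b1, by its brighter probe, they were Erp44, Ptk2 and Map4, a chaperone of the endoplasmic reticulum, a focal adhesion kinase and a microtubule-associated protein, at distances of 0.0264 to 0.0304. For Dync1h1 they were Kif1b, a kinesin, Macf1, a linker of actin and microtubules, and Zbtb11, at 0.0255 to 0.0299. The likeness of Kif1b holds for its brightest probe alone, since the mean of its probes differed by 1.52 towards the V/SVZ. The points of these profiles share 8 arrays and 2 slides.

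Among the other genes of the pathway, 69 of 80 listed genes could be tested. Of these, 24 were higher in the V/SVZ, 38 were higher in the CP and 7 did not pass the threshold, and their median difference was -0.17. Of all 19230 tested genes, 35% were higher in the V/SVZ and 44.6% in the CP. The pathway totals include genes that could be tested only because 1 tissue was well above background, so their direction adds little. The mitotic recruitment factors, cargo adaptors, light chains and nuclear envelope proteins are therefore also counted over genes well above background on all 8 arrays. Over all 17171 such genes, 34.5% were higher in the V/SVZ and 44.5% in the CP.

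The mitotic list holds 8 proteins that bring dynein to kinetochores, spindle poles or the nuclear envelope of dividing cells. Of these, 6 were well above background on all 8 arrays, and all 6 were higher in the V/SVZ, with a median difference of 1.76. The other 2, Spdl1 and Cenpf, were not well above background on any CP array, so they entered the test through the V/SVZ alone and add nothing to the count. Kntc1, a subunit of the RZZ complex that recruits dynein to kinetochores, read 0.36, 0.44, 0.22 and 0.26 in the V/SVZ and -3.92, -4, -3.86 and -3.92 in the CP, a 19-fold difference (4.25 ± 0.06, limma adjusted p = 5.17e-10). The other subunits, Zwilch and Zw10, were higher by 9.27-fold and 1.76-fold. Spdl1, the adaptor between that complex and dynein, was at least 9.16-fold higher, and Cenpf, which binds Nde1 and Ndel1, at least 3.87-fold. With normexp background correction their differences fell to 2.13 and 1.74, or 4.38-fold and 3.34-fold, below these bounds. Gpsm2 and Numa1, which tether dynein at the cell cortex to orient the spindle, were higher by 6.52-fold and 1.68-fold. Nup133, a nuclear pore protein that brings dynein to the nuclear envelope, was higher by 1.72-fold. The names in this group other than Kntc1 were chosen after their values were seen. Markers of mitotic cells moved with these genes, with the summed levels given above, and their part was not tested.

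Of the cargo adaptors, 14 of 16 could be tested, and 12 were higher in the CP and 2 in the V/SVZ (median -0.56). Of the 13 that were well above background on all 8 arrays, 11 were higher in the CP and 2 in the V/SVZ (median -0.47). The 6 markers of cortical plate neurons, all higher in the CP, moved with this group at the summed levels given above (41.3 to 44.4 against 229 to 242), and their part was not tested. Nin (ninein), a protein that anchors microtubules at the centrosome and activates dynein, had the widest difference of the group. Its brightest probe read -1.39, -1.38, -1.59 and -1.61 in the V/SVZ and 3.29, 3.41, 3.22 and 3.29 in the CP, 27.8-fold higher in the CP (-4.8 ± 0.07, limma adjusted p = 7.01e-10). Its other 2 probes gave 17.9-fold and 5.2-fold, and the mean of the 3 gave 13.7-fold. Hap1, which links dynein and kinesin to vesicles, went the other way and was 3.07-fold higher in the V/SVZ (1.62 ± 0.05, limma adjusted p = 3.18e-08). The second adaptor called towards the V/SVZ, Ninl, overlapped between tissues (0.15, limma adjusted p = 0.0413). It did not pass the threshold with the replicate block (adjusted p = 0.0721), normexp correction (0.109), no filter on dim probes (0.0741) or spike-in scaling (0.365). In these settings the count towards the V/SVZ was 1. With an array left out, Ninl kept its call in 2 of 8 fits.

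Dynactin is the complex that makes dynein processive. Of its 12 subunits, 8 were higher in the CP, 1 was higher in the V/SVZ and 3 did not pass the threshold, with a median of -0.22. The shares over all genes were 44.6% towards the CP and 35% towards the V/SVZ. Dctn1, the subunit that binds dynein and microtubules, read 3.26, 4.31, 4.31 and 4.31 in the V/SVZ and 5.01, 5.01, 5.04 and 5.04 in the CP. The CP arrays lay above, and V/SVZ array 1 lay below its group. The difference was -0.98 ± 0.23 (limma adjusted p = 0.00519) and -0.71 without that array (adjusted p = 1.04e-06). Actr1b, an actin-related subunit, was 0.17 higher in the V/SVZ (adjusted p = 0.0156), but on spike-in scaling the difference was 0.1 (adjusted p = 0.0762). By their brightest probes Actr10, Capza1 and Capzb differed by 0.16, -0.02 and 0.07 with overlapping arrays. Actr10 passed towards the V/SVZ with the replicate block (limma adjusted p = 0.0275), quantile normalization (0.0236), normexp correction (0.0246) and another variance model (0.0452). Over the 11 alternatives the dynactin count ran from 0 to 2 towards the V/SVZ and from 6 to 9 towards the CP. The other probes of the capping protein genes disagreed. A second Capzb probe was not well above background in the CP and was at least 8.68-fold higher in the V/SVZ, which brought the mean of the 2 probes to 2.36 (adjusted p = 3e-06). The 4 Capza1 probes differed by -1.1, -0.03, -0.02 and 0.16, with a mean of -0.25 (adjusted p = 0.000133).

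The light chains outside the 10 genes were split, with 3 higher in the V/SVZ and 2 in the CP among 5 tested of 7 listed. Of the 3, Dynlrb2 entered the test through the V/SVZ alone. Over the 4 genes well above background on all 8 arrays, 2 were higher in each tissue. Of the 5 tested, the count towards the CP was 1 with the replicate block and in 7 of 8 fits leaving out an array. The gene nearest the threshold was Dynlt3 (-0.09, limma adjusted p = 0.0355). Dynlrb1, a roadblock light chain, was 1.31-fold higher in the CP (-0.4 ± 0.04). Its paralogue Dynlrb2, named after its values were seen, was not well above background on any CP array. It was at least 1.75-fold higher in the V/SVZ. With normexp correction the Dynlrb2 difference was 0.63, or 1.55-fold, below that bound. Dynlt1f, a Tctex light chain, was 1.28-fold higher in the V/SVZ. It belongs, with Dynlt1c, to a cluster of near-identical gene copies that a probe may not tell apart. These 2 calls towards the V/SVZ may therefore be 1 signal. Partners of Lis1 and Nde1 were higher in the CP for 11 of 15 genes and in the V/SVZ for 4 (median -0.38). Of all genes, 44.6% were higher in the CP and 35% in the V/SVZ. Among the 11, Pcm1, named after its values were seen, had another probe called in the opposite direction. Aurka, the mitotic kinase that phosphorylates Ndel1, was 21.8-fold higher in the V/SVZ (4.45 ± 0.08, limma adjusted p = 1.77e-09). Cdk5r1, the neuronal activator of Cdk5, which also phosphorylates Ndel1, was 2.75-fold higher in the CP (-1.46 ± 0.04, limma adjusted p = 1.38e-08).

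The proteins that hold dynein or the nucleus at the nuclear envelope were split, with 2 of 5 higher in each tissue. The count towards the CP was 1 with quantile normalization, normexp correction or the deposited table, and 1 of 4 over the genes well above background on all 8 arrays. Syne1, a nesprin named after its values were seen, was well above background on 1 V/SVZ array and all 4 CP arrays. Ranbp2, a nuclear pore protein that recruits the dynein adaptor BicD2, was 1.6-fold higher in the V/SVZ. Sun2, an inner membrane anchor, was 1.1-fold higher in the CP, but its difference of -0.14 turned to 0.04 with normexp background correction. Sun1 differed by -0.04 and did not pass, but the mean of its 2 probes differed by -0.17 (adjusted p = 0.0169). For dynein-2, the motor of cilia, 3 of 5 genes were higher in the V/SVZ and 1 in the CP, beside 35% and 44.6% of all genes. Dync2li1 was 1.44-fold higher in the V/SVZ and Wdr34 1.48-fold higher in the CP, while Wdr60 differed by 0.03 ± 0.2. Of the axonemal dyneins of motile cilia, 5 of 12 could be tested. Dnai1, an intermediate chain, was 1.8-fold higher in the V/SVZ and Dnal1, a light chain, 2.35-fold higher in the CP. Dnah1 (-0.05 ± 0.14) and Dnah2 (-1.45 ± 0.89) did not pass.

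**Figure D4:**
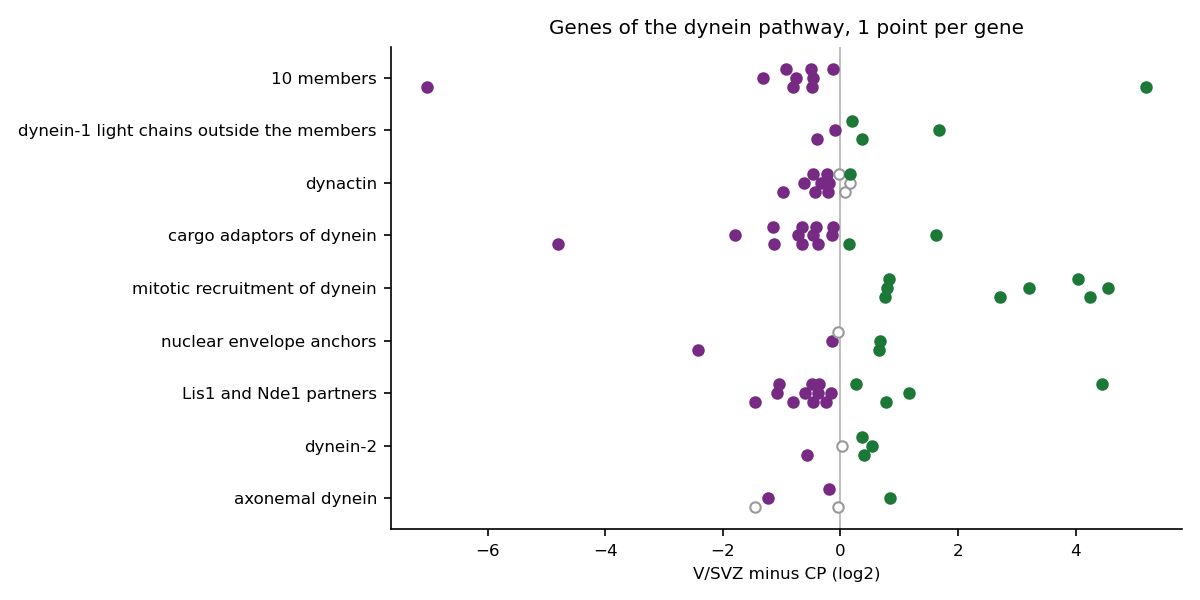
The horizontal axis is the difference V/SVZ minus CP in log2 units, 1 point per gene by its brightest probe, and each line holds 1 group of the pathway. Green points passed the threshold towards the V/SVZ, purple points towards the CP, and open grey points did not pass. All 8 mitotic recruitment genes lie right of 0, of which Spdl1 and Cenpf were testable only through the V/SVZ, and 12 of 14 cargo adaptors lie left of it, and among the 10 members Nde1 is the single point to the right.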

How the data were processed

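Gene expression was measured in 4 V/SVZ and 4 CP samples on 1-colour arrays. Per the file headers, Agilent Feature Extraction 10.7.1.1 made the deposited intensity values, which are background-subtracted signals per spot with no scaling between arrays. The array design names build mm9. A second file deposited by the authors holds log2 values of 17163 gene probes. A column named for 1 tissue matched the array with its number in the opposite tissue (r of 0.99 to 1), whereas its correlation with its own array was -0.97 to -0.96. The file was used only as an alternative, with the direction turned. Its column medians were -0.03 to 0.02, and its filter and scaling stay unknown. The number of unmapped columns was 0.

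Titles gave the groups and replicate numbers. Control spots and 142 to 258 outlier spots per array were left out, and no gene spot was saturated. Signals were taken to log2, averaged per probe and reduced by the 75th percentile of each array (2113 to 2566). Probes were tested if well above background on all 4 arrays of a tissue with at least 3 values in each. limma 3.58.1 in R 4.3.3 was used (lmFit and eBayes, Benjamini-Hochberg), after a test on simulated data. A fold against a tissue where a probe was not well above background is a lower bound for the main processing alone. It was taken against the lowest signal well above background on each array, or the probe's own where higher. Symbols came from a RefSeq table of GRCm38.p6, which named 26761 probes and left 12668 without a symbol. Array numbers limit the precision, and 58.4% to 62.9% of probes were well above background.

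The members and lists were chosen with earlier results of these data known. Named genes are all members, the called gene furthest towards each tissue in each list among those measured on all arrays, up to 5 that did not pass, and the 3 nearest profiles. Same-numbered arrays had the same place on their slides, and their deviations from the tissue means correlated at 0.46, 0.46, 0.18 and 0.29, so the replicate block was tried as a pairing from the data. Other alternatives were the scaling (median, quantile, spike-in), background correction (normexp), probe filter and choice, variance model, deposited table and each array left out.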

Additional observations from a re-analysis of the deposited data

Results flagged for a closer look

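In 110 groups of 4 arrays, 4 single arrays were flagged as apart from the other 3 by Dixon's criterion, which chance alone passes in about 1 in 20. Not every named gene that stood apart was flagged. Zbtb11 read -1.71 on CP array 4, against -1.78 on the other 3, so the count of 4 cannot be set against that rate. The Dync1li2 level on CP array 3 was -0.61, against -0.46 to -0.43 on the other CP arrays. The Pafah1b1 probe that was higher in the V/SVZ (A_55_P1992769) read 1.75 on CP array 2, against 1.95 to 1.98. Dctn1 read 3.26 on V/SVZ array 1, against 4.31 on the other 3. Tbr1 read 4 on V/SVZ array 2, against 3.86 to 3.87.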

How the results depend on the processing

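Over 11 alternatives, Nde1 stayed the 1 member called higher in the V/SVZ, and 8 or 9 members were called higher in the CP. The Nde1 difference ran from 4.93 to 5.23 and that of Dync1i1 from -7.19 to -6.88, while that of Dync1i2 ran from -0.58 to -0.27. Dync1li2 lost its call with normexp correction (-0.06, adjusted p = 0.265), with no filter on dim probes (-0.13, 0.077) and with the replicate block (-0.13, 0.0882), and ran from -0.17 to -0.11 with 1 array left out. The replicate block, a pairing seen in the data, changed no other call of a member. The paralogue changes, whose values of -6.52, -0.63, 0.52 and 5.67 it leaves as they are, cannot pass in 4 pairs (exact sign-flip p = 0.125, a test added after seeing the data). With the mean of a gene's probes, Pafah1b1 turned to 0.01, the Dynll1 and Dynll2 change to -0.05 and Kif1b to 1.52. With 1 array left out, the paralogue changes ran from -6.65 to -6.43 (Dync1i1 and Dync1i2), -0.67 to -0.56 (Dync1li1 and Dync1li2), 0.48 to 0.56 (Dynll1 and Dynll2) and 5.62 to 5.71 (Nde1 and Ndel1), where 4 against 3 arrays cannot give a p under 0.0571. Small differences turned for Capza1 (quantile 0.03), Sun1 (quantile 0.01, normexp 0.02), Sun2 (normexp 0.04), Dnah1 (quantile 0.13, normexp 0.09) and Wdr60 (spike-in -0.04). With 1 array left out, the range was -0.05 to 0.01 for Capza1, -0.18 to 0.04 for Dnah1 and -0.14 to 0.16 for Wdr60. Dnah2 was -2.38 without V/SVZ array 1 (adjusted p = 0.00127). Over 1.5-fold moves of called genes came with normexp correction, whose offset shrinks low signals, for Pax6 (5.45), Eomes (7.69), Spc24 (4.53), Caln1 (-5.84), Spdl1 (2.13), Cenpf (1.74), Dynlrb2 (0.63) and the dimmer Nde1 probes (3.9 and 3.02), and with the mean of probes for Nin (-3.78), Ntsr1 (-6.12) and Pax6 (5.48). Probes called ran from 6677 to 8992 towards the V/SVZ and from 7580 to 15234 towards the CP. The cause of these changes was not tested. Spike-in scaling, chosen after seeing the data, moved the median of all genes from -0.09 to -0.16, and no filter moved it to -0.29.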
